A study of Mus musculus with 14 samples.

Results

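The constitutive androstane receptor CAR and the pregnane X receptor PXR are nuclear receptors of the liver that sense drugs, bile acids and steroids and switch on genes for their removal. The genes described here are the receptor genes Nr1i3 (CAR) and Nr1i2 (PXR), the cytochrome P450 genes Cyp2b10, Cyp2b9, Cyp2b13 and Cyp2c55, the heme synthesis gene Alas1 and the P450 reductase gene Por. They were listed by name from this pathway, and 7 of the 8 were found among 22180 genes with a probe set of their own, each taken by its brightest probe set over all 14 arrays. Por was not among them and is not analysed here.

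Both receptors bind DNA together with the retinoid X receptor. CAR rests in the cytoplasm of hepatocytes in a complex with chaperones, and it enters the nucleus when a ligand or a change in phosphorylation releases it, so that its activity can change without a change in its transcript. Cyp2b10 is the classical CAR target of mouse liver and Cyp2c55 another inducible P450. Cyp2b9 and Cyp2b13 are closely related genes whose liver transcripts are predominant in female mice. P450 proteins need heme, whose synthesis begins with the enzyme made from Alas1, and electrons, which come from the reductase and from cytochrome b5.

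The study asked how a sleep deprivation of 6 h changes glucose tolerance and fat in the liver. Liver RNA of male C57BL/6J mice, an inbred strain with no transgene or deletion named, was measured on Affymetrix arrays from 100 ng of total RNA per sample: 7 sleep-deprived mice (numbers 1, 2, 3, 5, 6, 10 and 13) and 7 controls (numbers 4, 7, 8, 9, 11, 12 and 14). Sleep was disturbed in the study by gentle handling, by cage changes or over water, but the method behind the arrays, the age, the time of day and the feeding state are not labelled. They number the livers without stating that each came from another mouse, so p-values measure the spread between these samples, and each is called a mouse below.

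Values are log2 expression, so that a difference of 1 is a doubling. Array medians lay between 3.44 and 3.49 and correlations between arrays between 0.984 and 0.990. Over all genes, 1886 of 22180 (8.50%) differed between the groups at an adjusted p under 0.05 (limma, Benjamini-Hochberg over all genes), 861 higher (3.88%) and 1025 lower (4.62%) after sleep deprivation. The larger number of lower calls depended on the fit, with 890 higher and 863 lower when arrays were centred on their medians, and 950 and 911 with the sample number as a covariate. It stayed after a further quantile normalization, with 939 higher and 1018 lower. The groups did not overlap at 695 genes (3.13%). Of the 7 pathway genes measured, 1 was higher, 1 was lower and 5 did not pass, and the groups overlapped at all 7. The name Cyp2b induction therefore holds for Cyp2b10 and for neither Cyp2b9 nor Cyp2b13.

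Cyp2b10, Cyp2b13 and Cyp2b9 lie side by side on chromosome 7, and their promoters are compared here. The 250 bases before the start of each were taken from the RefSeq promoter table (build GRCm38.p6, all on the + strand, printed 5′ to 3′), at chr7:25897408-25897657 for Cyp2b10, chr7:26061245-26061494 for Cyp2b13 and chr7:26173159-26173408 for Cyp2b9. Capitals mark the hexamer AGGTCA, a recognition sequence of nuclear receptors.
Cyp2b10: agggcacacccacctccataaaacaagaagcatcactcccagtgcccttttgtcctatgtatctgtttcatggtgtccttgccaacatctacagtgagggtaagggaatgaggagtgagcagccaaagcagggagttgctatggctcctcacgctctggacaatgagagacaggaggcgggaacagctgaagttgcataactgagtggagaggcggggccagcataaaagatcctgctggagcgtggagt
Cyp2b13: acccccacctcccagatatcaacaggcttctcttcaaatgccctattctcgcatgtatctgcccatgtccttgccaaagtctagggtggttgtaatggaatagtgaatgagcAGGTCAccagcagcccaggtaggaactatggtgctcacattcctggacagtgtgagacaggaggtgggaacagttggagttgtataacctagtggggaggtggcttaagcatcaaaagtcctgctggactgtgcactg
Cyp2b9: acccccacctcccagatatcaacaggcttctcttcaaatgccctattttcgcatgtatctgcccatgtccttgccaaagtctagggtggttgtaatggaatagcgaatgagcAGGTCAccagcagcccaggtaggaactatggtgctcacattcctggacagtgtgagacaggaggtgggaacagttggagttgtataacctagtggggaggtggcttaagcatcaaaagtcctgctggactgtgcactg

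The windows of Cyp2b9 and Cyp2b13 were identical at 248 of 250 bases (99.2%). They differed at T48C and C104T, where the Cyp2b9 base stands first and positions count from 1 at the 5′ end of the window. Cyp2b10 aligned to either of them over 240 bases, of which 182 (75.8%) were identical. AGGTCA was found 1 time in Cyp2b9 and in Cyp2b13, at 138 to 133 bases before the start, and 0 times in Cyp2b10. It was searched on both strands and occurs in 14% of 32841 promoter windows of this length. The hexamer AGTTCA (11.8% of windows) and the glucocorticoid receptor hexamer AGAACA (16.1%) were in none of the 3, nor was the E-box CACGTG (6.02%) or the D-box TTATGTAA (0.819%) or TTACGTAA (0.113%). A match or its absence describes only the letters of this window.

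The promoter of Nr1i3 (GRCm38.p6, chr1:171213720-171213969, + strand) is shown because its transcript fell, with an E-box in capitals at 244 to 239 bases before the start. E-boxes are bound by clock activators, among other factors. No D-box, the site of the clock output factors DBP and TEF, was found in these 250 bases. Only the exact forms TTATGTAA and TTACGTAA were searched. They occur in 0.819% and 0.113% of promoter windows, so their absence is usual.
Nr1i3: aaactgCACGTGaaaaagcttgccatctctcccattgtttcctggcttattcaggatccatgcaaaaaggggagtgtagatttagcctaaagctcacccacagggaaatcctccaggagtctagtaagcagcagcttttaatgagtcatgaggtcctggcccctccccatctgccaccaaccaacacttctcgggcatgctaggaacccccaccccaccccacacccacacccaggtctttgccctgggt

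Nr1i3 fell after sleep deprivation. In controls (probe set 17219231) its lowest, median and highest log2 levels were 9.49, 9.88 and 10.22, and in sleep-deprived mice 9.14, 9.41 and 9.91. The sleep-deprived values lay mostly below, with 5 of 7 under every control, while mice 5 and 10 lay within the control range. Controls averaged 9.83 ± 0.26 and sleep-deprived mice 9.44 ± 0.24 (SD, n = 7 each). This is a log2 difference of -0.39 ± 0.11 (SE of the fit, 95% interval -0.62 to -0.16), or 1.31-fold lower (limma, adjusted p = 0.0304). The call was near the threshold. It was lost with the sample number as a covariate (-0.28, adjusted p = 0.152), with 2 other variance models, and in 9 of 14 fits without a single mouse, where adjusted p reached 0.0682. Those mice were 1, 2, 3, 6 and 13 of the sleep-deprived and 4, 9, 11 and 14 of the controls.

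Nr1i2, the PXR gene, did not pass the test. Its control levels ran from 8.60 through a median of 8.77 to 8.87 (probe set 17330323), and its sleep-deprived levels from 8.64 through 8.94 to 8.98. In 5 of 7 sleep-deprived mice it was above every control, while mice 2 and 5 lay within the control range, mouse 2 far below the rest of its group. The difference was 0.14 ± 0.058 (95% interval 0.021 to 0.26, limma, adjusted p = 0.162). Without sleep-deprived mouse 2 it was 0.18 and passed (adjusted p = 0.0277). The upper end of the interval over all mice corresponds to a rise of 1.20-fold.

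**Figure D1:**
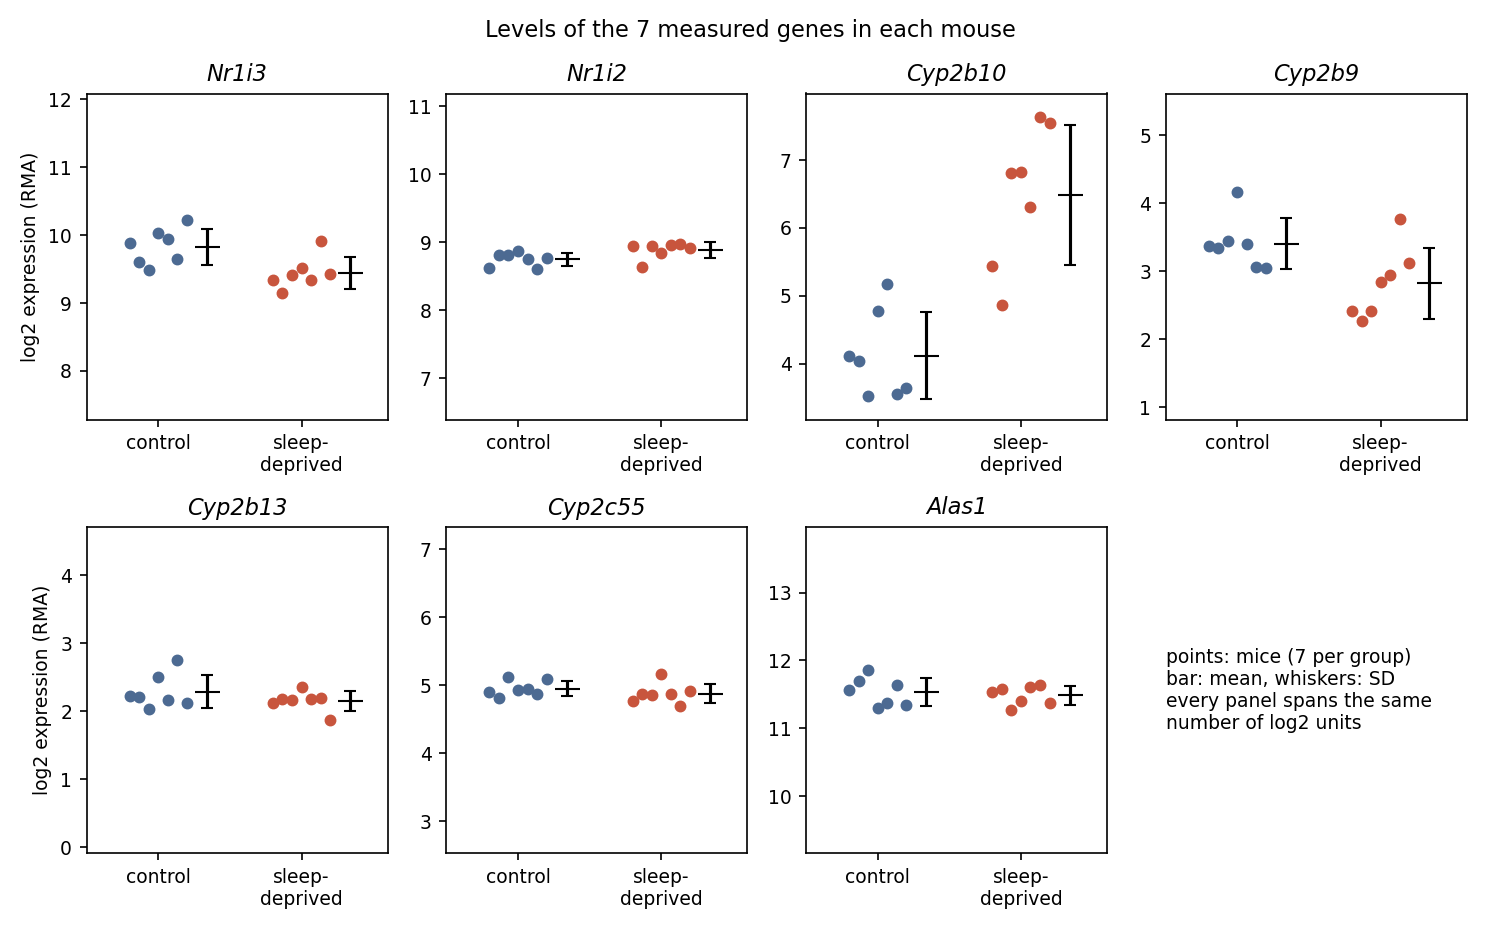
Each point is the log2 level of a gene in 1 mouse, with 7 controls (blue) and 7 sleep-deprived mice (red), and the bar and whiskers beside them are the mean and SD. Panels have their own position but the same span, so the rise of Cyp2b10 by 2.37 can be compared with the difference of -0.39 in Nr1i3 and of -0.58 in Cyp2b9, while the remaining genes differed by 0.14 or less.

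Cyp2b10, whose enzyme oxidises drugs and steroids, rose strongly after sleep deprivation. In controls its log2 levels ran from 3.52 in mouse 8 through a median of 4.04 to 5.17 in mouse 11 (probe set 17475360). In sleep-deprived mice they ran from 4.87 in mouse 2 through 6.81 to 7.64 in mouse 10. Of the 7 sleep-deprived mice 6 were above every control, and all 7 were above the control mean.

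The means of Cyp2b10 were 4.12 ± 0.64 in controls and 6.49 ± 1.03 after sleep deprivation (SD, n = 7 each). The difference of 2.37 ± 0.37 is a rise of 5.17-fold (95% interval 3.04 to 8.78-fold, limma, adjusted p = 0.000241). This call held in every alternative fit, with adjusted p of at most 0.00524, and in every fit without 1 mouse, with a difference between 2.18 and 2.64. In bulk liver, more cells with the transcript and more transcript per cell cannot be told apart.

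The other Cyp2b genes did not rise with it. Cyp2b9 had control levels of 3.04, 3.37 and 4.17 (lowest, median, highest, probe set 17475385) and sleep-deprived levels of 2.26, 2.85 and 3.77. Its values were lower in most sleep-deprived mice, 5 of 7 being under every control. The difference of -0.58 ± 0.20 (95% interval -0.999 to -0.166) did not pass (limma, adjusted p = 0.0818). It passed without sleep-deprived mouse 10, the highest of its group (-0.74, adjusted p = 0.00764), and was -0.41 with the sample number as a covariate (adjusted p = 0.298).

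Cyp2b13 was dim, with 13.6% of genes having a lower mean (probe set 17475373), so that a change could be understated. Its levels ran from 2.04 through a median of 2.22 to 2.76 in controls and from 1.87 through 2.18 to 2.35 in sleep-deprived mice. The groups lay on top of each other, with a difference of -0.14 ± 0.098 (95% interval -0.35 to 0.064, limma, adjusted p = 0.503). Cyp2b9 was also in the dimmer part of the array, with 35.0% of genes below it.

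Whether Cyp2b10 moved differently from its relatives was tested on the log2 difference between genes within each mouse. The change of Cyp2b10 exceeded that of Cyp2b9 by 2.95 ± 0.33 (exact permutation test, two-sided, p = 0.000583, the smallest that 3432 splits allow, adjusted over 3 comparisons p = 0.00117). In all 7 sleep-deprived mice this difference between the genes was above every control. Against Cyp2b13 the excess was 2.51 ± 0.48 and against Cyp2c55 2.44 ± 0.47 (exact permutation, each p = 0.00117, adjusted p = 0.00117), with 6 of 7 sleep-deprived mice above every control. Cyp2b13 and Cyp2c55 themselves differed by only -0.14 and -0.074, so these excesses mostly restate the rise of Cyp2b10 by 2.37. The genes were chosen with earlier results of these data known, so the 3 tests are no independent support for that rise.

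Cyp2c55, on chromosome 19, has 2 probe sets. In the brighter (17364390) controls ran from 4.81 through a median of 4.93 to 5.13 and sleep-deprived mice from 4.70 through 4.87 to 5.16. These ranges coincide, and the difference was -0.074 ± 0.076 (95% interval -0.23 to 0.085, limma, adjusted p = 0.692). The dimmer probe set (17359239) went the same way, from 4.06 ± 0.36 to 3.71 ± 0.13 (SD, n = 7 each), a difference of -0.35 ± 0.13 that did not pass (adjusted p = 0.110 over all probe sets). An induction of Cyp2c55 by more than 1.06-fold lies outside the interval of the brighter probe set. The value of the dimmer one lies below that interval, so the 2 probe sets differ in size. Which of them follows the Cyp2c55 transcript better was not tested. This bound and the comparison of Cyp2b10 with Cyp2c55 rest on the brighter probe set alone.

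Alas1, whose enzyme starts heme synthesis and whose gene CAR and PXR can induce, did not pass either. Its controls ran from 11.30 through a median of 11.57 to 11.85 (probe set 17530653) and its sleep-deprived mice from 11.27 through 11.53 to 11.64. The groups overlapped almost fully. The difference of -0.051 ± 0.078 had a 95% interval of -0.21 to 0.11 (limma, adjusted p = 0.815).

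Among the sleep-deprived mice, mouse 10 had the highest level in 5 of the 7 genes, Cyp2b10, Cyp2b9, Nr1i3, Nr1i2 and Alas1. Mouse 2 had the lowest in 4 of them, Cyp2b10, Cyp2b9, Nr1i3 and Nr1i2. Both mice were also the extremes of their group in some genes listed further below, such as Elovl3, Abcd2 and Cyp4a14, though not in others. Whether an order of mice is shared by many genes was not tested. The pairs were compared within each group, since a pooled value would hold the group difference, in 14 relations over 7 mice each.

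Cyp2b10 and Nr1i3 ordered the sleep-deprived mice almost alike, although their group means moved in opposite directions. Spearman's rho was 0.964 (exact permutation p = 0.00278, adjusted over 14 relations p = 0.0389) and Pearson's r was 0.781 (exact permutation p = 0.0236, adjusted p = 0.213), with r = 0.682 without the 2 mice farthest from the median of Cyp2b10. In controls rho was 0.536 and r 0.390 (exact permutation p = 0.236 and 0.372), with r = 0.0913 without the 2 farthest mice. Whether the relation differs between the groups was not tested.

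Cyp2b10 and Cyp2b9 also ran together among sleep-deprived mice, with r = 0.796 and rho = 0.821 (exact permutation p = 0.0304 and 0.0341), but neither passed adjustment (adjusted p = 0.213 and 0.239). Without the 2 farthest mice r was 0.665. Cyp2b9 and Cyp2b13, with nearly the same promoter window, had r = -0.085 in sleep-deprived mice and 0.102 in controls (exact permutation p = 0.882 and 0.784). Without the 2 farthest mice these were -0.321 and -0.994, so the control value depended on those mice. The remaining relations had unadjusted exact p of 0.108 or more, and by Pearson's r 0 of the 14 passed adjustment (2 at an unadjusted p under 0.05).

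**Figure D2:**
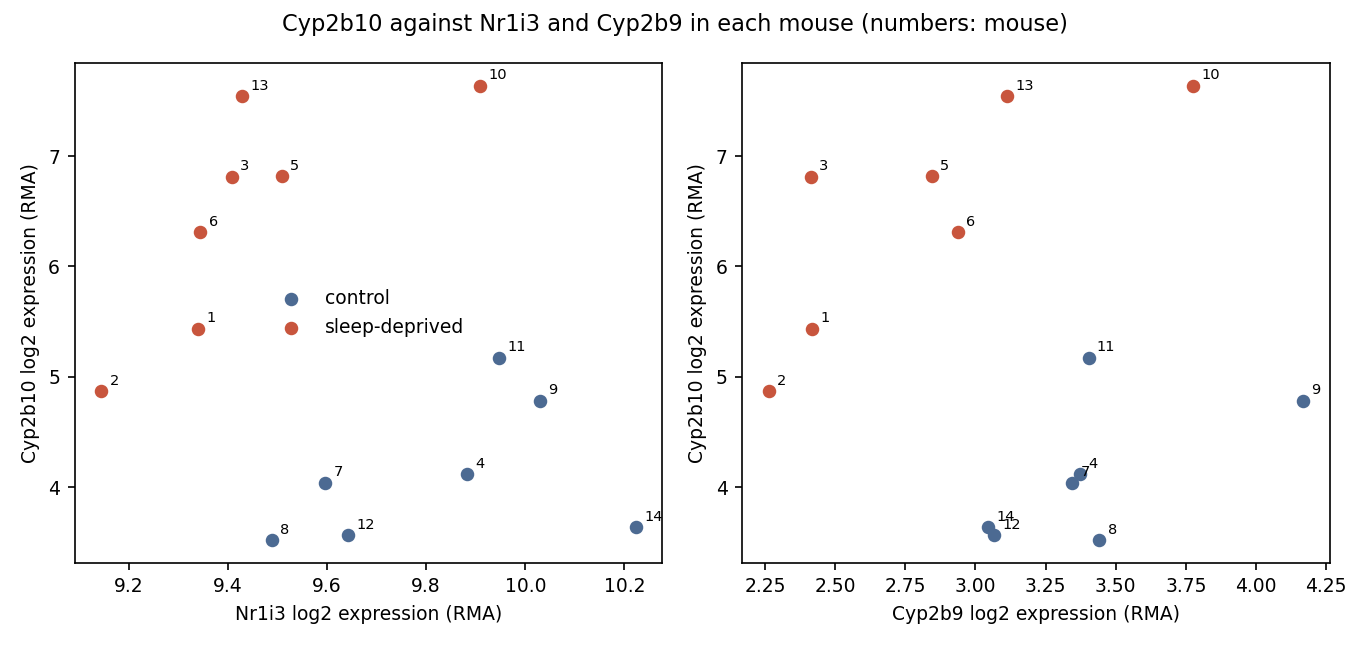
Log2 level of Cyp2b10 (vertical) against that of Nr1i3 (left) and Cyp2b9 (right), 1 point per mouse with its number, controls in blue and sleep-deprived mice in red. Most sleep-deprived mice sit above and to the left of the controls, and within them Cyp2b10 rises from mouse 2 (4.87) to mouse 10 (7.64) along with both other genes.

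Over all 14 mice, with each group's mean subtracted, the genes most like Cyp2b10 were the tyrosylprotein sulfotransferase Tpst2 (r = 0.856, rho = 0.824), the urea cycle enzyme Asl (r = 0.840, rho = 0.736), Ice1 (r = 0.836, rho = 0.780) and the acyltransferase gene Acnat2 (r = 0.827, rho = 0.829). Of these Asl rose (0.38 ± 0.052, limma, adjusted p = 6.32e-05), while Tpst2, Ice1 and Acnat2 were at 0.14, 0.13 and 0.79 and did not pass (adjusted p = 0.150, 0.449 and 0.0862). All 3 passed with the sample number as a covariate, at 0.19, 0.24 and 1.15 (limma, adjusted p = 0.0491, 0.0436 and 0.00558), and Acnat2 also without sleep-deprived mouse 2 (1.05, adjusted p = 0.00150). Most opposite were Slc22a30, of the organic anion transporter family (r = -0.922, rho = -0.895), the heparan sulfate sulfotransferase Hs6st2 (r = -0.895, rho = -0.921), Pou4f1 (r = -0.835) and Cfap298 (r = -0.834). Slc22a30 fell (-0.53 ± 0.11, limma, adjusted p = 0.00341), and the differences of the other opposite genes lay between -0.012 and 0.071. These genes were picked as the extremes among all genes, so their r is a description without a test.

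Cyp2b10 was the 1 gene that rose in its stretch of chromosome 7. The stretch was chosen after the values were seen, as all protein-coding genes from the first to the last Cyp2 gene there in the RefSeq table, which gave 18 genes, 13 of them P450s. Of the 13 P450 genes 3 fell, namely Cyp2a4 (-0.87 ± 0.10, limma, adjusted p = 1.05e-05), Cyp2a5 (-0.82 ± 0.14) and Cyp2g1 (-0.75 ± 0.11). Cyp2g1 was dim, with means of 3.76 in controls and 3.02 in sleep-deprived mice, near the array medians. The means of Cyp2a4 were 7.95 and 7.08, and those of Cyp2a5 4.88 and 4.06. Cyp2a4 and Cyp2a5 encode hydroxylases of steroids and coumarin, and Cyp2a5 is itself known as inducible through CAR. At each of these 3 genes all sleep-deprived mice were below all controls. Over all genes 4.62% were lower, and the groups did not overlap at 3.13%.

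The other 9 P450 genes of the stretch did not pass. They include the abundant hepatocyte genes Cyp2f2 (0.013 ± 0.032) and Cyp2a12 (-0.072 ± 0.033), and the dim Cyp2b family members Cyp2b19 (0.11 ± 0.088) and Cyp2b23 (0.072 ± 0.16). Of 5 pheromone receptor and Nlrp genes lying between them 0 passed (limma, 0 at an unadjusted p under 0.05). These 5 were dim, with control means from 1.68 (Nlrp9c) to 2.67 (Nlrp9a), below every array median, so a change could hardly have been seen.

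**Figure D3:**
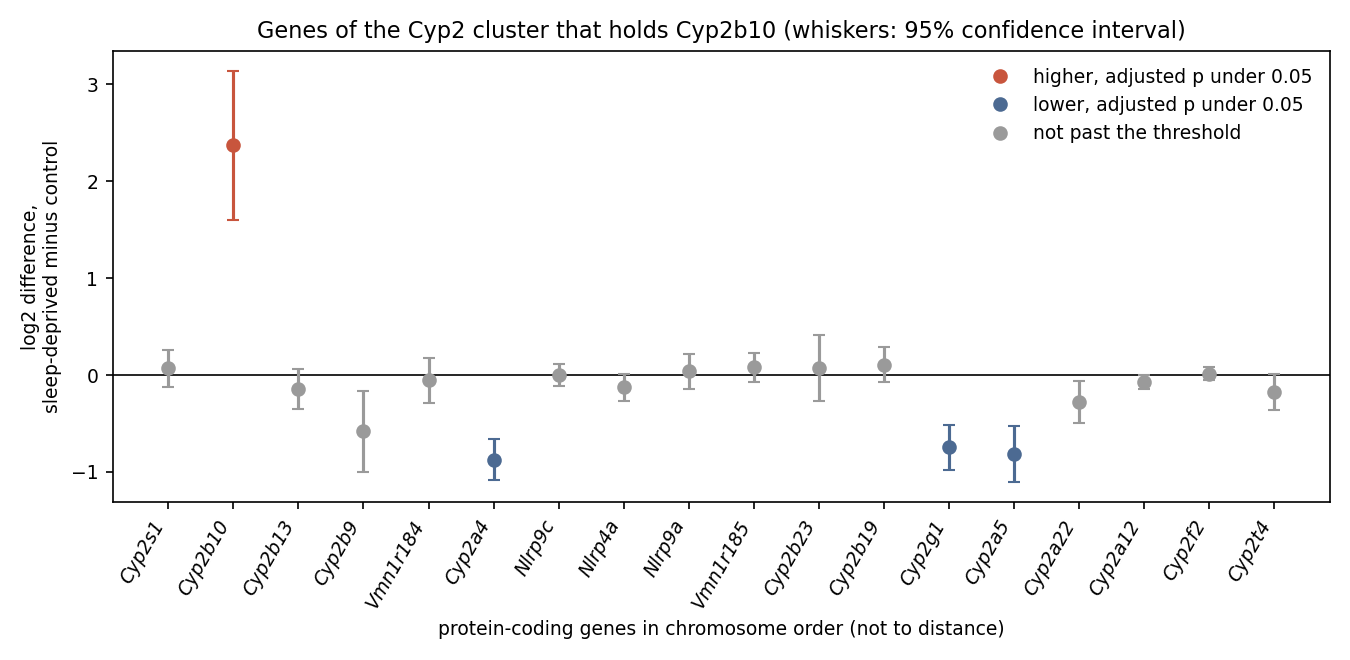
Log2 difference, sleep-deprived minus control, of 18 neighbouring genes in chromosome order, with 95% confidence intervals (7 mice per group), red for higher and blue for lower past an adjusted p of 0.05. Cyp2b10 stands at 2.37 beside Cyp2b13 (-0.14) and Cyp2b9 (-0.58), and Cyp2a4, Cyp2g1 and Cyp2a5 lie between -0.87 and -0.75.

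Among other genes known to respond to CAR or PXR more were lower than higher. Of 41 listed 36 were measured, and 3 were higher and 11 lower, with 27 differences below 0 and a median log2 difference of -0.15 against -0.0048 over all genes. The shares of 38.9% called here and 8.50% over all genes are descriptions, since the list was chosen with results known. The list was also not matched to all genes in brightness. A fit to only the genes brighter than the median called 2259, against 1886 over all 22180, so calls are more frequent among brighter genes. Higher were the sulfotransferases Sult1d1 (0.85 ± 0.067, limma, adjusted p = 1.20e-07) and Sult1e1 (0.41 ± 0.094) and the flavin monooxygenase Fmo5 (0.29 ± 0.047).

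Lower beside Cyp2a4 and Cyp2a5 were the glucuronosyltransferase Ugt2b35 (-1.03 ± 0.079, limma, adjusted p = 1.15e-07), the retinal dehydrogenase Aldh1a1 (-0.61 ± 0.066, adjusted p = 5.35e-06) and Papss2, which makes the sulfate donor (-0.73 ± 0.093). Cyp2c54, Aldh1a7, the export pumps Abcc3 and Abcc2, the carboxylesterase Ces2a and Ugt2b34 fell by 0.49 or less. The genes beyond the 4 with the smallest adjusted p were named after their values were seen.

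The remaining measured genes of this list did not pass. Among them Cyp3a11, the main PXR-inducible P450, was at 0.060 ± 0.14 (limma, adjusted p = 0.883). Cyp2c29 and Cyp2c37, which CAR activators induce, were at -0.030 ± 0.092 and -0.028 ± 0.12, and Gstm3 at -0.35 ± 0.20 (adjusted p = 0.371). Gadd45b, a stress gene induced through CAR, was at 0.41 ± 0.13 (adjusted p = 0.0570). These were also chosen after their values were seen.

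CAR targets are concentrated in hepatocytes around the central vein. Of 8 pericentral markers Lgr5 (-1.05 ± 0.14) and Rgn (-0.24 ± 0.034) were lower and 6 did not pass, among them Glul at 0.077 and Slc1a2 at 0.071, with a list median of -0.036. Their mean level lay between 9.47 and 9.62 in controls and between 9.25 and 9.45 in sleep-deprived mice, without overlap, but this rested on Lgr5. Without Lgr5, a choice made after seeing the data, the mean of the other 7 was 10.068 to 10.22 in controls and 10.015 to 10.174 in sleep-deprived mice, a difference of -0.046. The part of these markers in the lower targets was not tested. General hepatocyte markers had 3 of 7 higher, with mean levels of 11.60 to 11.74 in controls and 11.72 to 11.85 after sleep deprivation, so these genes were bright in every mouse.

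Of 69 marker genes in 13 lists, 9 were higher and 4 lower, with Sox9 in both the periportal and the cholangiocyte list. Over all genes 3.88% were higher and 4.62% lower. Sinusoidal endothelial markers had 3 of 7 higher, with mean levels of 7.28 to 7.65 in controls and 7.50 to 7.97 after sleep deprivation, and periportal markers 1 of 4 higher and 1 lower. Stellate (1 of 7), cholangiocyte (1 of 5) and intestinal (1 of 6) markers had 1 gene higher each, and T, NK and B cell markers (1 of 6) had 1 lower. The remaining 5 lists, of Kupffer, neutrophil, erythroid, acinar and fat cells, had 0 of 20 genes past the threshold (limma, 0 at an unadjusted p under 0.05). Of 5 erythroid markers listed only 1 was measured. Neutrophil and fat cell markers were dim, with mean levels in controls of 2.41 to 2.65 and 2.95 to 3.28, below every array median. A change in these cells could therefore have been missed.

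Genes around the receptors themselves went in both directions, 3 of 23 higher and 3 lower (median 0.060). That is 26.1% called, against 8.50% over all genes. This list and those below were also chosen with results known and not matched in brightness. Higher were Hsp90aa1, a chaperone of the cytoplasmic CAR complex (0.42 ± 0.076, limma, adjusted p = 0.000972), Foxo1, a coactivator of CAR that insulin inhibits (0.28 ± 0.060), and the coactivator Med1 (0.21 ± 0.061). Lower were Dbp (-0.91 ± 0.14, adjusted p = 0.000297) and Tef (-0.32 ± 0.077), clock output factors known to drive Nr1i3, Por and Alas1, and the glucocorticoid receptor gene Nr3c1 (-0.22 ± 0.055), whose protein supports Nr1i3 transcription. Hlf, the third factor of the DBP family, was at 0.060 ± 0.058, and the receptor partner Rxra at -0.088 ± 0.047 (adjusted p = 0.661 and 0.330).

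Of 7 genes listed for cytochrome b5, its reductases and P450 partners, 3 were lower, 0 were higher and 4 did not pass. That is 42.9% called, against 8.50% over all genes. All 7 differences were below 0, with a median of -0.15. Cytochrome b5 (Cyb5a) was at -0.23 ± 0.043, its outer mitochondrial form Cyb5b at -0.41 ± 0.079 and the heme-binding P450 partner Pgrmc1 at -0.19 ± 0.038 (limma, adjusted p = 0.00154, 0.00165 and 0.00218). At these 3 genes the groups did not overlap, as at 3.13% of all genes. The b5 reductase Cyb5r1 was at -0.15 ± 0.073 (adjusted p = 0.261).

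Heme genes beyond Alas1 had 1 of 16 higher and 3 lower (25% called, against 8.50% over all genes), with a median of -0.055. Alad, the next enzyme of the pathway, was at -0.44 ± 0.056 (limma, adjusted p = 3.71e-05), the porphyrin transporter Abcb6 at -0.29 ± 0.054 and the oxidase Ppox at -0.30 ± 0.068, each with all sleep-deprived mice below all controls. Clpx, the mitochondrial unfoldase that acts on the ALAS1 protein, rose by 0.81 ± 0.16 (adjusted p = 0.00193). Heme oxygenase Hmox1, which breaks heme down, was at 0.27 ± 0.17 (adjusted p = 0.450).

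Because Cyp2b9 and Cyp2b13 are female-predominant, sex-biased liver genes were set beside them. Of 19 other female-predominant genes 4 were higher and 2 lower (median 0.032), or 31.6% called, against 8.50% over all genes. Cyp17a1 (1.69 ± 0.17) and the fatty acid hydroxylase Cyp4a14 (2.91 ± 0.62) were the largest rises, and the peroxisomal transporter Abcd2 (-1.38 ± 0.24) and Cyp2a4 the falls. Of 20 male-predominant genes 2 were higher and 5 lower (median -0.045), or 35% called. The elongase Elovl3 was up (1.42 ± 0.16), while Cyp2u1 (-0.88 ± 0.11) and Bcl6 (-1.24 ± 0.24), a repressor of female-type genes in male liver, were down.

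**Figure D4:**
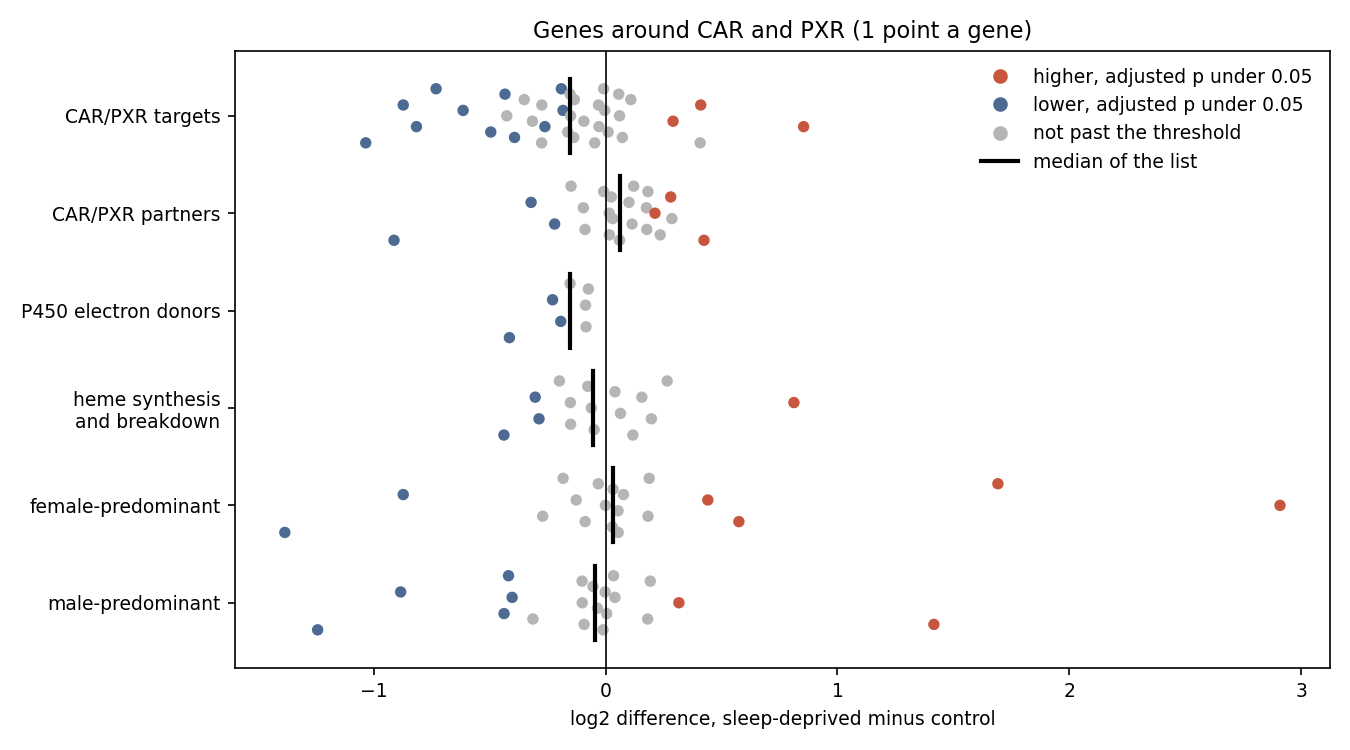
Log2 difference, sleep-deprived minus control (7 mice each), of every measured gene in 6 lists around the receptors, red for higher and blue for lower past an adjusted p of 0.05, grey for the rest, with a black bar at the median. The targets hold 3 red and 11 blue points with a median of -0.15. The genes labelled as P450 electron donors, which include b5 reductases and P450 partners, lie wholly below 0.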

How the data were processed

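Liver RNA was labelled with the Affymetrix WT PLUS kit, per the labels' protocols. The authors deposited 1 log2 value per probe set and array. The submitters' processing notes name RMA, a method that corrects background, equalises the arrays' distributions and summarises probes, with no version. Its software and annotation are not stated in the labels. RMA understates changes of dim genes. The table holds no detection calls, and the number of arrays limits precision.

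Of 41345 probe sets 23521 had 1 symbol in the platform annotation, 1814 had several and 16010 were not listed. Symbols were updated by Entrez ID (23328 matched, 0 changed). The brightest probe set was kept for each of 22180 genes, with no filter on dim ones. Groups came from the titles. Sleep-deprived minus control was fitted with limma 3.58.1 in R 4.3.3 (eBayes with an intensity trend, two-sided, Benjamini-Hochberg, threshold 0.05), and the steps were tested on simulated data. SEs are limma's moderated ones, except those of differences between genes, which come from the group variances. Differences between genes used exact permutation over mice. Of the 16 relations planned within groups 14 were run, since Por was not found.

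The members and the lists were chosen with earlier results of these data known. Genes were named by a rule: the members, the 4 lowest adjusted p of each list, and the 4 most and least like Cyp2b10, without predicted and small RNA genes. Other list genes with values in the text, Nr3c1, Med1, Hlf, Rxra and Hmox1 among them, were chosen after their values were seen. Promoters came from RefSeq, where 8 of the 8 listed genes had an entry. The alternatives were other variance models, array weights, a filter on dim genes, other summaries of probe sets, centring, quantile normalization, the sample number as a covariate and leaving out each mouse.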

Additional observations from a re-analysis of the deposited data

Results flagged for a closer look

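In 76 groups of 7 mice, 1 for each named gene and condition, 4 held a mouse far from the others of its group, where chance alone flags about 1 in 20. In Cyp2b9, control mouse 9 was highest at 4.17, with the next control at 3.44. Without it the difference of Cyp2b9 was -0.46 (limma, adjusted p = 0.167). In Nr1i2, sleep-deprived mouse 2 was lowest at 8.64, with the next at 8.84.

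Sleep-deprived mouse 2 also stood apart in Cyp4a14, at 6.81 with the next at 9.56. In the CAR target gene Ugt2b35, control mouse 7 was highest at 9.12, with the next at 8.78, which lies on the far side from the sleep-deprived mice.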

How the results depend on the processing

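The 7 measured genes gave 2 calls, Cyp2b10 and Nr1i3, and 1 call without the intensity trend, with robust estimation or with the sample number as a covariate. The lost call was that of Nr1i3, at -0.39 (adjusted p = 0.0506), -0.39 (adjusted p = 0.0615) and -0.28 (adjusted p = 0.152, limma). Leaving out 1 mouse gave 1 to 3 calls, with Nr1i3 between -0.47 and -0.32 and its call lost without sleep-deprived mice 1, 2, 3, 6 or 13 or controls 4, 9, 11 or 14. Without 1 mouse Cyp2b9 lay between -0.74 and -0.46, Nr1i2 between 0.12 and 0.18 and Alas1 between -0.090 and 0.0018. Cyp2b9 and Nr1i2 gained a call without sleep-deprived mouse 10 or 2, and Alas1 changed sign without control mouse 8, always far from the threshold. Hs6st2, never called, was at 0.0029 with centred arrays and between -0.046 and 0.027 without 1 mouse. Spearman's rho passed adjustment in 1 relation where Pearson's r passed in 0. The filter on dim genes removed Cyp2b9 and Cyp2b13. The number of calls over all genes and over all listed genes stayed within 1.5 times of the reported one in every alternative run, and the 3 differences between genes kept their direction and call. Over all genes the split of 861 higher and 1025 lower turned to 890 and 863 with centred arrays and to 950 and 911 with the covariate. After quantile normalization it kept its direction, at 939 and 1018. Of the 31 named genes outside the set 24 were called, and all 24 kept the call in every alternative, while Tpst2, Ice1 and Acnat2 gained a call with the covariate. No paired analysis was possible because the groups share no sample number.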
